A study of Homo sapiens with 14 samples.

Results

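The basal KLF4 sites of untreated WT BEAS-2B cells were taken as all intervals on chromosomes 1 to 22 and X in the KLF4 peak list of the WT control library. They number 751, out of 107268 intervals in the 4 KLF4 lists of the study. The members were therefore chosen on the peak calls of this one library, and their p, fold and width in it are given below as a description. BEAS-2B cells are an immortalised line of bronchial epithelial origin. KLF4 binding was measured by ChIP-seq, with 1 library for each of 4 conditions. WT control cells carried no knockout and received no arsenic. WT As3+ cells received 1 µM trivalent arsenic (As3+) for 6 h. Nrf2 KO control cells, made with CRISPR-Cas9 and guide RNAs against Nrf2, were left untreated, and Nrf2 KO As3+ cells received the same dose for the same time. The knockout cells were picked as colonies without detectable Nrf2 protein. In the paper, colonies from that transfection which kept Nrf2 were named wild type. The sample labels do not say whether the WT libraries came from such colonies. The only KLF4 input library is labelled BEAS-2B, with no knockout or arsenic named. No condition has a replicate, so no test between conditions was possible, and every difference below compares 1 library with another.

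KLF4 is a zinc-finger transcription factor of the KLF and SP family, which reads C-rich elements of the CACCC and GC-box type. It is known for its part in epithelial differentiation and as a reprogramming factor. Nrf2 is the transcription factor that switches on antioxidant genes when arsenic or other electrophiles release it from KEAP1. AP-1 (FOS and JUN dimers), TEAD and RUNX proteins are transcription factors that commonly occupy enhancers in adherent epithelial cells.

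The words of the KLF family are CCACACCC and CCACGCCC on either strand. Of the 4 words whose positions were counted, KLF, AP-1, TEAD and RUNX, the KLF word had the highest density ratio of summit to flank. The AP-1 word stood further above GC-weighted genome windows than the KLF word. Windows of 100 bp centred on the summit are printed for sites chosen by their strength, their number of KLF words or the lists that hold them, on the plus strand of GRCh38/hg38. KLF words and AP-1 words (TGANTCA) are in capitals. The first group holds sites that also had a peak in WT As3+ cells.
Intergenic site, rank 3, chr5:37272764-37272863: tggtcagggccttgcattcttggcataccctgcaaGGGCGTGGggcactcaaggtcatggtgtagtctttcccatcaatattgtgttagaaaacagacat
Intergenic site between LINC00592 and KRT80, rank 7, chr12:52147464-52147563: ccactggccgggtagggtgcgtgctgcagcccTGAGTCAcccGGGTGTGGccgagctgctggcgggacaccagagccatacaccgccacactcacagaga
SGMS1 intron 6, chr10:50418343-50418442: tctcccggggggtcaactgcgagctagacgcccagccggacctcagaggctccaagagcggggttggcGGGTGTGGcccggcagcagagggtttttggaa
ITPK1 intron 3, chr14:93036493-93036592: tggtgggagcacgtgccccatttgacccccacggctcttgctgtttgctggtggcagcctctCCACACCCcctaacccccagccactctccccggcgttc
Intergenic site near FTSJ1, chrX:48487468-48487567: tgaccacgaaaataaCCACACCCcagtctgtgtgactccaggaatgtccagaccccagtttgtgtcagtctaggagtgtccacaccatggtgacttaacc
DNER intron 9, chr2:229408550-229408649: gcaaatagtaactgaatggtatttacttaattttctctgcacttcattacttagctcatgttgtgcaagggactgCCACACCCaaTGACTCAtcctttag

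The next group holds, first, a pair of sites with a KLF word that had no peak in any other list, and then a pair of very strong sites that hold neither word in this window.
Intergenic site near CD109, chr6:73680329-73680428: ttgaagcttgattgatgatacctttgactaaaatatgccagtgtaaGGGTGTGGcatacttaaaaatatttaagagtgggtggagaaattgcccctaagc
Site 816 bp from the start of RNU4-41P, chr12:98418804-98418903: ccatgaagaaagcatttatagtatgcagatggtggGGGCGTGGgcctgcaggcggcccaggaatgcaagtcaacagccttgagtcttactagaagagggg
TRIOBP intron 12, rank 2, chr22:37752692-37752791: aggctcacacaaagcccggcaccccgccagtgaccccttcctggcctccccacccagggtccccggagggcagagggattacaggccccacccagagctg
Upstream of S100A14, rank 4, chr1:153617694-153617793: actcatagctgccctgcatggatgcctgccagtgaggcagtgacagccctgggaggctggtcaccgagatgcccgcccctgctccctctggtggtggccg

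Strong sites thus occurred without CCACACCC or CCACGCCC, and sites with a KLF word occurred that no other list held. The TRIOBP window does hold CCCCACCC, which matches the looser KLF spelling CCNCNCCC. DNER encodes a transmembrane Notch ligand, CD109 a cell-surface glycoprotein, SGMS1 a sphingomyelin synthase, ITPK1 an inositol phosphate kinase, TRIOBP an actin-bundling protein and S100A14 an epithelial calcium-binding protein.

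The sites were mostly narrow and of moderate strength. Their −log10 p at the summit ran from 4.64 to 61.8 with a median of 10.4, and the fold over local background ran from 1.65 to 12.3 with a median of 4.37. The number of fragments over the summit, worked out from fold and p, ran from 10 to 185 with a median of 25. This is the depth behind each call, since read totals were not used here. Widths ran from 200 to 1217 bp with a median of 275 bp. Of the 751 sites, 53 had the minimum width and 3 were 1000 bp or wider, all of the latter at NBAS, DDX1 and MYCN on chromosome 2. The list ended at a −log10 q of 1.03. The 5 weakest sites by this value lay between 1.03 and 1.23, and 433 sites, or 57.7%, were at or over 5. Intervals just outside the threshold are not in the list.

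The other lists differed greatly in size, with 29866 peaks in WT As3+, 76521 in Nrf2 KO control and 130 in Nrf2 KO As3+ cells. A WT As3+ peak shared at least 1 bp with 643 of the 751 sites. This is 85.6%, with an exact (Clopper-Pearson) 95% interval of 82.9 to 88.1%, which like all intervals here covers counting error only. An overlap with a Nrf2 KO control peak was found for 392 sites, or 52.2% (48.6 to 55.8%), and with a Nrf2 KO As3+ peak for 57 sites, or 7.59% (5.80 to 9.72%). These shares are read against 291113 windows of 275 bp spaced evenly along the genome, of which 0.641%, 1.6% and 0.00275% overlapped a peak of the 3 lists in the same order. They are also read against windows of that width at the starts of 19970 protein-coding genes, of which 32.2%, 43.5% and 0.0751% did. Seen from the other lists, the shared peaks were 2.15% of the WT As3+ list, 0.514% of the Nrf2 KO control list and 43.8% of the Nrf2 KO As3+ list. Although the Nrf2 KO control list was the longest, fewer sites recurred in it than in the WT As3+ list. These shares depend on the overlap rule. With a reciprocal overlap of 50% they were 42.6% for WT As3+, 21.7% for Nrf2 KO control and 6.66% for Nrf2 KO As3+. With the 2 long lists limited to their first 751 peaks they were 36.1% and 12%.

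The sites fell into 7 patterns of presence. The largest, of 338 sites, had a peak in WT As3+ and Nrf2 KO control cells. Another 249 sites had a peak only in WT As3+ cells, and 99 sites, or 13.2%, had none in any other list. All 4 lists held 46 of the sites. The remaining patterns were small, with 10 sites shared with WT As3+ and Nrf2 KO As3+, 8 with Nrf2 KO control alone and 1 with Nrf2 KO As3+ alone.

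**Figure D1:**
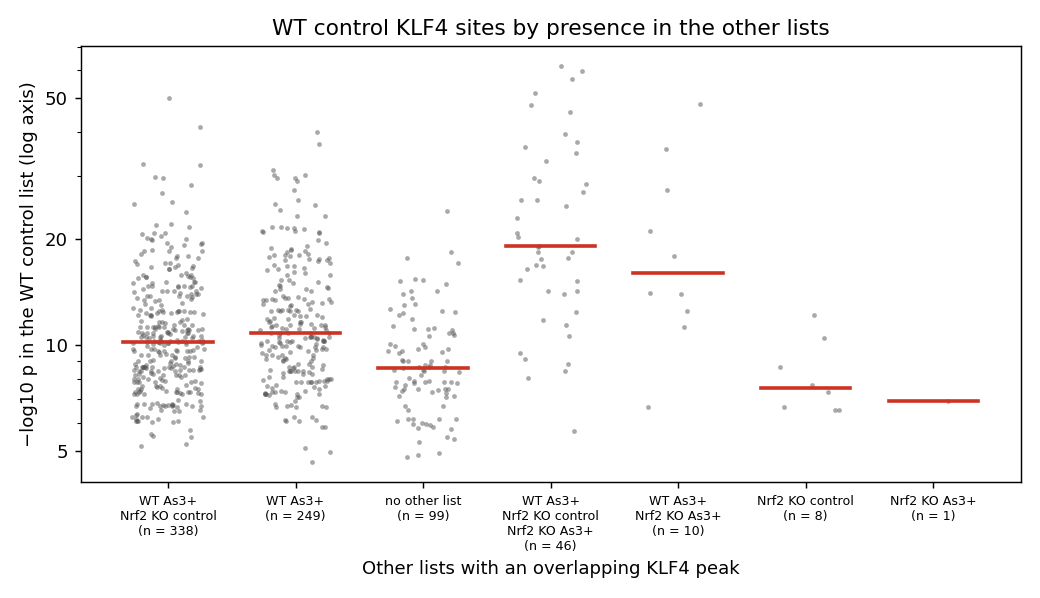
Each point is 1 of the 751 WT control sites, placed by its −log10 p in the WT control list (vertical log axis) and grouped by the other KLF4 lists with an overlapping peak. Red bars are medians, highest at 19.0 for the 46 sites held in all lists and 8.59 for the 99 sites in no other list.

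Sites that recurred differed in strength, place and base composition. The 46 sites in all lists had a median −log10 p of 19.0 with 42.5 fragments over the summit, and 52.2% lay within 2 kb of a gene start. The 99 sites in no other list had a median −log10 p of 8.59, 19 fragments and a median GC content of 46.5%, and 13.1% of them lay within 2 kb of a gene start. From the strongest to the weakest quartile of sites, the share with a WT As3+ peak fell from 95.7% to 73.9% and the share with a Nrf2 KO As3+ peak from 20.7% to 2.13%. For Nrf2 KO control the same quartiles gave 56.9% and 48.4%, with overlapping intervals. The strongest site found in no other list lay in intron 1 of CMIP at chr16:81527059-81527357, with a −log10 p of 24.0 and 33 fragments. The following ones were in intron 19 of KIFAP3, which encodes a kinesin-associated protein, with 18.4, and near CD109 with 17.6.

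Presence in the Nrf2 KO control list followed GC content closely. Below 40% GC in the 200 bp around the summit, 17.6% of 34 sites had a Nrf2 KO control peak. The share was 13.0% of 169 sites at 40 to 50%, 38.4% of 242 at 50 to 60%, 84.5% of 220 at 60 to 70% and 98.8% of 86 sites at 70% or more. Over the same bands the share with a WT As3+ peak was 50%, 67.5%, 88.0%, 97.3% and 98.8%. The sites in no other list made up 47.1%, 31.4%, 11.6%, 0.909% and 0%. The genome windows moved the same way at far lower levels, from 0.143% with a Nrf2 KO control peak below 40% GC to 21.6% at 60 to 70% and 47.6% at 70% or more. For WT As3+ those window shares were 0.0526%, 8.69% and 32.4%. The part of base composition in these differences between lists was not tested.

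**Figure D2:**
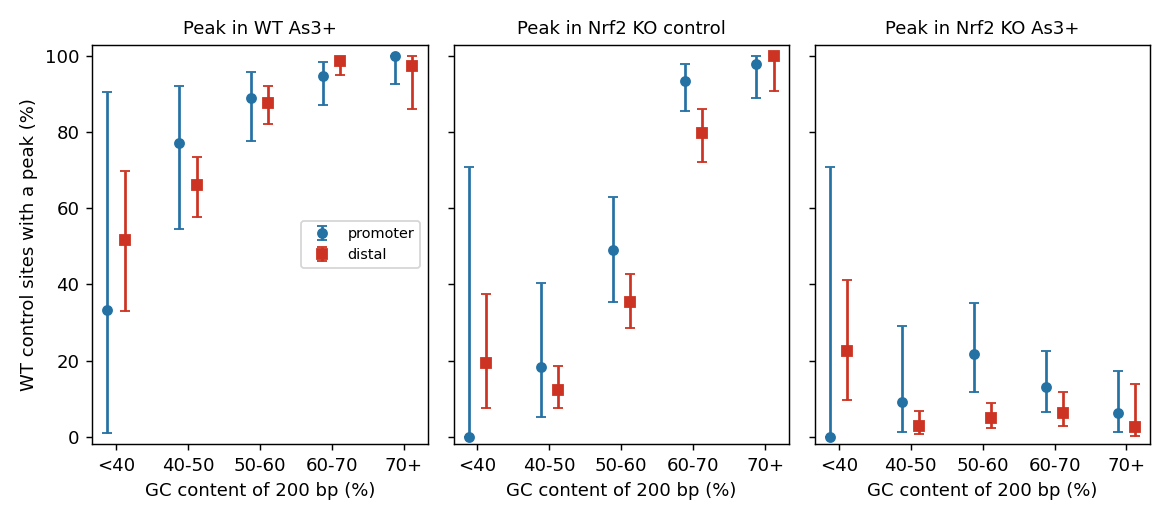
Share of WT control sites with an overlapping peak in each other list (vertical axis, percent) by GC content of the 200 bp at the summit, for promoter sites (circles) and distal sites (squares). Bars are 95% Clopper-Pearson intervals; the Nrf2 KO control share climbs from 12.2% of distal sites at 40 to 50% GC to 100% at 70% or more.

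Promoter sites, with the summit within 2 kb of a gene start, recurred more often than distal ones. Of 205 promoter sites, 91.7% had a WT As3+ peak, 73.2% a Nrf2 KO control peak and 13.2% a Nrf2 KO As3+ peak. Of 546 distal sites the shares were 83.3%, 44.3% and 5.49%. Promoter sites were richer in GC, with a median of 63% against 54.5%. For Nrf2 KO control the gap narrowed within a band of like GC. At 50 to 60% GC, 49.1% of promoter sites (35.4 to 62.9%) and 35.3% of distal sites (28.5 to 42.6%) had a Nrf2 KO control peak, intervals that overlap. At 60 to 70% GC they were 93.5% (85.5 to 97.9%) and 79.7% (72.2 to 86.0%), and at 70% or more 97.9% and 100%.

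In the 2 long lists, sites that recurred were mostly among the strongest peaks. Peaks were ranked by −log10 p within each list, with percentile 100 for the first. The median percentile of the shared sites was 95.8 in WT As3+, 94.6 in Nrf2 KO control and 76.0 in Nrf2 KO As3+ cells. In WT As3+ cells, 429 of the 643 shared sites were in the top 10% of the list, 175 were in the top 1% and 44 in the lower part of the ranking, below percentile 50. In Nrf2 KO control cells 239 of 392 were in the top 10% and 40 below percentile 50. In Nrf2 KO As3+ cells these were 13 and 15 of 57. That list had only 130 peaks and 57 of them held a site, so the shared sites could not all lie near its top. Their median rank there was 32, and their percentiles cannot be set against those of the long lists. Of the first 100 WT As3+ peaks, 89 held a WT control site, against 43 of the first 100 Nrf2 KO control peaks. It was 52 of the first 100 Nrf2 KO As3+ peaks, which are most of that list. Of the first 751 peaks the numbers were 266 in WT As3+ and 87 in Nrf2 KO control. The order among shared sites was only loosely kept, with a Spearman rho of −log10 p across sites of 0.293 (n = 643), 0.200 (n = 392) and 0.307 (n = 57) for the 3 lists. These points share local background and base composition, and no p is given for them.

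**Figure D3:**
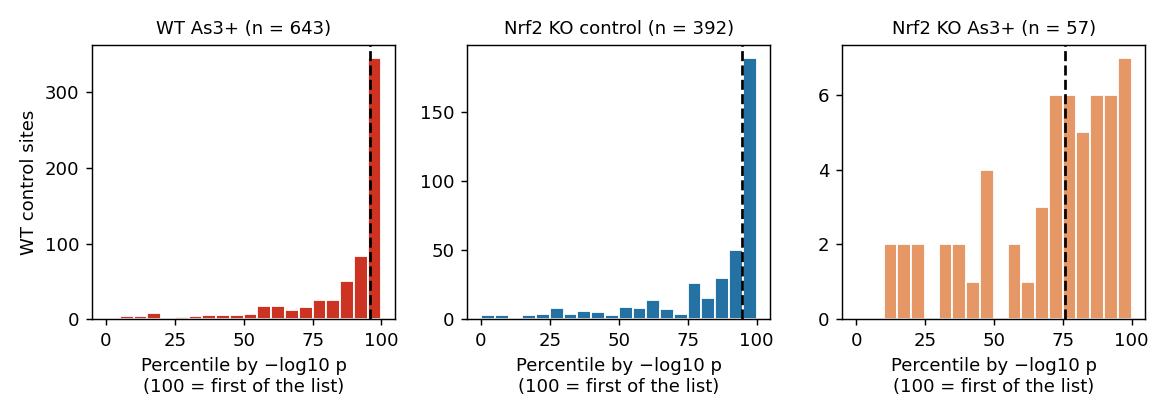
Histograms of the percentile rank by −log10 p (horizontal axis, 100 is the first peak of the list) of the WT control sites that overlap a peak in each other list, with the number of sites on the vertical axis and a dashed line at the median. The medians are 95.8, 94.6 and 76.0, with 643, 392 and 57 sites.

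The overlapping peaks were wider than the sites in the 2 long lists. In WT As3+ cells the peak was wider at 578 of 643 sites, with a median of 564 bp against 282 bp for the same sites in the WT control list, while all WT As3+ peaks had a median of 290 bp. In Nrf2 KO control cells 84.7% of shared peaks were wider, with medians of 552 and 282.5 bp. In Nrf2 KO As3+ cells only 29.8% were wider, with medians of 263 and 344 bp. A wide peak could take in several sites, and the 643 sites shared with WT As3+ fell in 641 peaks. Summits lay within 100 bp of each other at 73.6% of sites shared with WT As3+, 56.1% with Nrf2 KO control and 86.0% with Nrf2 KO As3+. The wider peaks did not hold more fragments at the summit. Their median was 26 in WT control and 23 in WT As3+ over the 643 shared sites, and 26 and 15 over the 392 sites shared with Nrf2 KO control. Local backgrounds were lower in both long lists, at medians of 2.08 and 1.3 fragments against 4.94 and 4.84 in WT control for the same sites. The part of background and depth in the wider peaks was not tested.

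The strongest site lay 113 bp from the start of CALCOCO1, a coiled-coil coactivator, at chr12:53727455-53727809, and held 1 KLF word in its 200 bp. It had 85 fragments over the summit in WT control, 77 in WT As3+, 39 in Nrf2 KO control and 33 in Nrf2 KO As3+ cells. Its ranks were 1, 11, 22 and 22 in those lists, above percentile 99 in WT As3+ and Nrf2 KO control and at 83.7 in Nrf2 KO As3+. The second, in intron 12 of TRIOBP at chr22:37752511-37752984, was the first peak of the WT As3+ list and had 83, 116, 28 and 30 fragments in the same order. The site 758 bp from the start of S100A14, at chr1:153617571-153617930, ranked 4, 8, 8 and 5 with 67, 88, 52 and 49 fragments. Fragment counts, here and below, were not adjusted for depth or local background, so a lower count need not mean lower enrichment. At sites shared with WT As3+, the median background was 4.94 fragments in WT control and 2.08 in WT As3+. At sites shared with Nrf2 KO control it was 4.84 and 1.3, and with Nrf2 KO As3+ 5.32 and 4.74.

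The lists differ in length, so the ranks of the other leading sites are given with percentiles. The intergenic site at chr5:37272567-37272992 ranked 3 in WT control, 343 in WT As3+, 15190 in Nrf2 KO control and 8 in Nrf2 KO As3+ cells, at percentiles of 98.9, 80.2 and 94.6 in the last 3, with 71, 31, 11 and 38 fragments. The site at chrX:154596329-154596927, 11484 bp from CTAG1A, ranked 5, 10 and 18934 in the first 3 lists, the last at percentile 75.3, and had no Nrf2 KO As3+ peak. The site in intron 3 of EHD4, which encodes an endocytic recycling protein, ranked 6, had 60, 32 and 28 fragments in WT control, WT As3+ and Nrf2 KO As3+, and had no peak in Nrf2 KO control cells. The tenth site, in intron 8 of PTCSC2 on chromosome 9, recurred only in WT As3+ cells, with 59 and 39 fragments. Between them, the seventh site near KRT80, a type II keratin gene, ranked 5, 46 and 50 in the other lists, the first pair above percentile 99 and the last at 62.0. The eighth, on chromosome 20 in an intron of ENSG00000132832, ranked 63, 1837 and 7, at percentiles of 99.8, 97.6 and 95.3. The ninth, in intron 10 of COL6A2, which encodes a chain of collagen VI, ranked 34 and 138 in the 2 long lists, above percentile 99 in both, and was absent from Nrf2 KO As3+ cells.

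The 5 sites ranked highest in WT As3+ cells, at ranks 1 to 5, were those of TRIOBP, SEMA3B, NBAS, DDX1 and the site near KRT80. The SEMA3B site, 1492 bp from a gene start at this semaphorin gene, had 58, 108 and 32 fragments in WT control, WT As3+ and Nrf2 KO control cells and ranks of 18, 2 and 54. Among sites that recurred in WT As3+ cells alone, those at SSUH2 (chr3:8712515-8712954) and in intron 9 of DNER followed the PTCSC2 site, with 63 and 48 fragments in WT control against 32 and 24 in WT As3+ cells. Sites near FBLN2, which encodes the matrix protein fibulin 2, and at ZNF675 joined the EHD4 site in having WT As3+ and Nrf2 KO As3+ peaks but none in Nrf2 KO control cells. The 3 strongest of the 8 sites shared with Nrf2 KO control alone, at LINC00667, NUP42 and RBFOX2, had 22, 20 and 22 fragments in WT control against 6, 7 and 9 in Nrf2 KO control cells.

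At the other end, the 5 shared sites lowest in the WT As3+ ranking all lay below percentile 10 of that list. The strongest of these in WT control was 16726 bp from SRSF3, a splicing factor gene, with a −log10 p of 21.6 and 44 fragments against 12 in WT As3+. A site 803 bp from the start of FBRS stood lowest, at percentile 1.88 with 18 and 10 fragments. Of the first 10 sites, 9 had a Nrf2 KO control or Nrf2 KO As3+ peak, and none was confined to the WT control list.

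The sites lay mostly away from gene starts. Of the 751, 205 (27.3%) lay within 2 kb of a gene start, 348 (46.3%) in an intron farther off, 189 (25.2%) between genes and 9 in exons. The median distance from summit to nearest gene start was 8150 bp, with 333 sites over 10 kb and 29 over 100 kb away, and 88 of the intronic sites lay in intron 1. Within 200 bp of a start lay 75 sites. The share within 2 kb was 50.4% of WT As3+ peaks, 34.1% of Nrf2 KO control peaks and 38.5% of Nrf2 KO As3+ peaks. At an equal number of 751, the first WT As3+ peaks had 52.7% and the first Nrf2 KO control peaks 73.6% of their summits there, so the WT control sites were the more distal set at matched size too. Of the first 751 WT As3+ peaks, the 266 that held a WT control site had 35.7% within 2 kb, and the 485 that held none had 62.1%. Strength did not follow place, with a median −log10 p of 10.3 at promoter sites and 10.4 at distal ones.

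**Figure D4:**
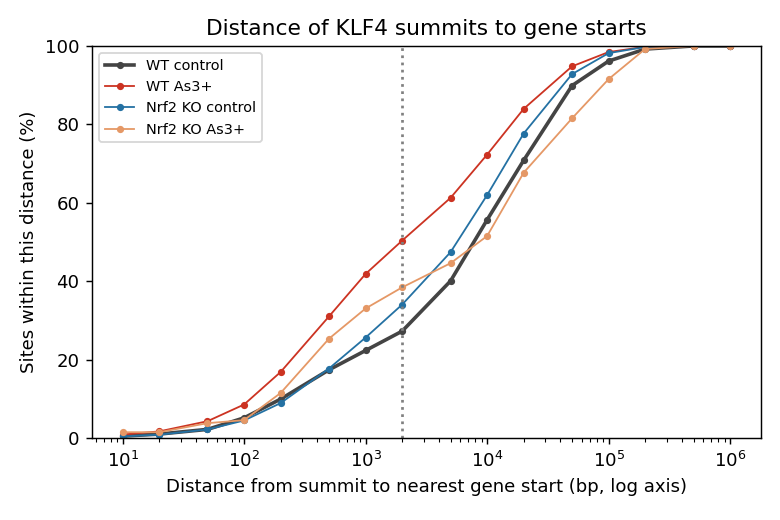
Cumulative share of KLF4 summits (vertical axis, percent) within a given distance of the nearest gene start (horizontal log axis, bp) for the 4 lists; the dotted line marks 2000 bp. At that distance the WT control sites reach 27.3%, below the 34.1 to 50.4% of the other lists.

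Per Mb, sites were most frequent on chromosome 19, with 0.614, and least on X, with 0.0641, against 0.248 overall. Chromosomes 19 and X were also the highest and lowest in both long lists. With at least 5 sites each no more than 500 kb apart, 9 clusters held 51 sites. The strongest spanned chr2:15560413-15943244 and held 7 sites at NBAS, DDX1, LINC01804 and MYCN, with a median −log10 p of 27.1. Of these 7 sites, 6 recurred in all other lists at a median percentile of 99.9 in WT As3+ and 98.1 in Nrf2 KO As3+ cells. The local background in this cluster, a median of 3.08 fragments, was below the 4.84 of all sites. NBAS and DDX1 are neighbours of the proto-oncogene MYCN. The DDX1 site had 56, 106, 88 and 71 fragments in WT control, WT As3+, Nrf2 KO control and Nrf2 KO As3+ cells and ranked 11, 4, 3 and 3. The NBAS site had 52, 90, 93 and 53 fragments and ranked 12, 3, 1 and 2.

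Another cluster, at chr16:46386306-46391048, held 5 sites in under 5 kb with a local background of up to 96.3 fragments, and all 5 recurred in all other lists. It is one part of a set of 23 sites whose background was at least 5 times the lowest of the list. Leaving these 23 out moved the share present in Nrf2 KO As3+ from 7.59% to 6.87% and the other shares by less. The single site shared with Nrf2 KO As3+ alone, at chr21:10273351-10273550, also had a raised background of 18.4 and a GC content of 9.5%.

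Motif words were counted on both strands of the 200 bp at each summit and set beside genome windows weighted to the same GC content. A KLF word was found at 199 sites, or 26.5% (23.4 to 29.8%), against 6.83% in GC-weighted windows, a ratio of 3.88 (3.42 to 4.37). In all genome windows of that size the share was 2.74%, and in windows at protein-coding gene starts it was 5.98%. The word CCACACCC was present at 154 sites and CCACGCCC at 49. Of all sites, 13 held 2 or more KLF words and 1 held 3, in an exon of SSUH2 at chr3:8629562-8629830. Distal sites held a KLF word more often, at 28.6% against 6.58% in GC-weighted windows, than promoter sites, at 21.0% against 7.49%. The ratio was 1.40 over all WT As3+ peaks, 1.24 over Nrf2 KO control peaks and 2.78 (1.72 to 4.16) over Nrf2 KO As3+ peaks. In the first 751 peaks, 20.1% (17.3 to 23.2%) of WT As3+ and 11.5% (9.26 to 13.9%) of Nrf2 KO control summits held a KLF word. These leading peaks had a median GC content of 69.5% and 71.5%, against 57% for the WT control sites. WT control sites of like GC held a KLF word at 21.8% (16.5 to 27.9%) for 60 to 70% GC and 20.9% (12.9 to 31.0%) for 70% or more, about the share of the leading WT As3+ peaks.

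AP-1, TEAD and RUNX words were also more frequent than in GC-weighted windows. The AP-1 word TGANTCA was found at 165 sites, or 22.0% (19.1 to 25.1%), against 4.20%, a ratio of 5.23 (4.54 to 5.98). It was at 13.0% of the first 751 WT As3+ and 3.6% of the first 751 Nrf2 KO control peaks, which are richer in GC. WT control sites of like GC held it at 27.7% (21.9 to 34.1%) for 60 to 70% GC and 8.14% (3.34 to 16.1%) for 70% or more. In all genome windows and in windows at gene starts it was present in 6.10% and 3.04%. The TEAD word GGAATG was found at 189 sites, or 25.2% (22.1 to 28.4%), against 9.08%, with 10.8% and 6.43% in all genome windows and at gene starts. The RUNX word TGTGGTT was found at 95 sites, or 12.6% (10.4 to 15.2%), against 2.62%, with 3.79% and 1.95% in those windows. The first 751 WT As3+ peaks held TEAD and RUNX words at 16.2% and 4.26%, and the first 751 Nrf2 KO control peaks at 7.86% and 1.20%. WT control sites held them at 21.8% and 7.27% for 60 to 70% GC, and at 17.4% and 1.16% for 70% or more. KLF and RUNX words can share letters, and at 14 sites every RUNX word did. The other 81 sites, or 10.8%, had a RUNX word apart from any KLF word. RUNX words were more frequent at distal sites, with 15.8% (12.8 to 19.1%) against 2.81% in GC-weighted windows, while promoter sites had 4.39% (2.03 to 8.17%) against 2.13%. Over all peaks of the other lists the RUNX ratio was 1.19 in WT As3+, 0.878 in Nrf2 KO control and 2.72 in Nrf2 KO As3+.

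Other words were nearer the background. The antioxidant response element core TGACNNNGC, which Nrf2 reads with small MAF proteins, was at 12.8% of sites against 8.61%, a ratio of 1.48 (1.22 to 1.79), and was present in 5.87% of all genome windows and 9.96% of gene-start windows. The NFY word CCAAT was at 16.8% against 17.5%, and the E-box CACGTG at 2.93% against 3.73%. These words were in 27.1% and 1.84% of all genome windows. The ETS word CCGGAAG was at 6.83% of promoter sites against 2.51%, and was in 11.2% of windows at gene starts.

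Each of the 4 leading words was densest at the summit. Within 50 bp of a summit there were 1.74 KLF words per kb and site, against 0.246 more than 300 bp away, a ratio of 7.06. The same ratio was 2.03 for WT As3+, 1.76 for Nrf2 KO control and 4.84 for Nrf2 KO As3+ peaks. For AP-1 it was 3.88 at WT control sites against 1.22 and 0.742 in the 2 long lists. For TEAD the ratios were 2.40, 1.00 and 0.890, and for RUNX 3.72, 1.02 and 0.743. In Nrf2 KO As3+ peaks they were 2.20 for AP-1, 1.43 for TEAD and 3.96 for RUNX. These rest on only 10, 13 and 7 words within 50 bp. The long lists were counted over all their peaks, weak ones included. In the long lists, then, only the KLF word, and in WT As3+ to a small degree the AP-1 word, was denser at summits than in the flanks.

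**Figure D5:**
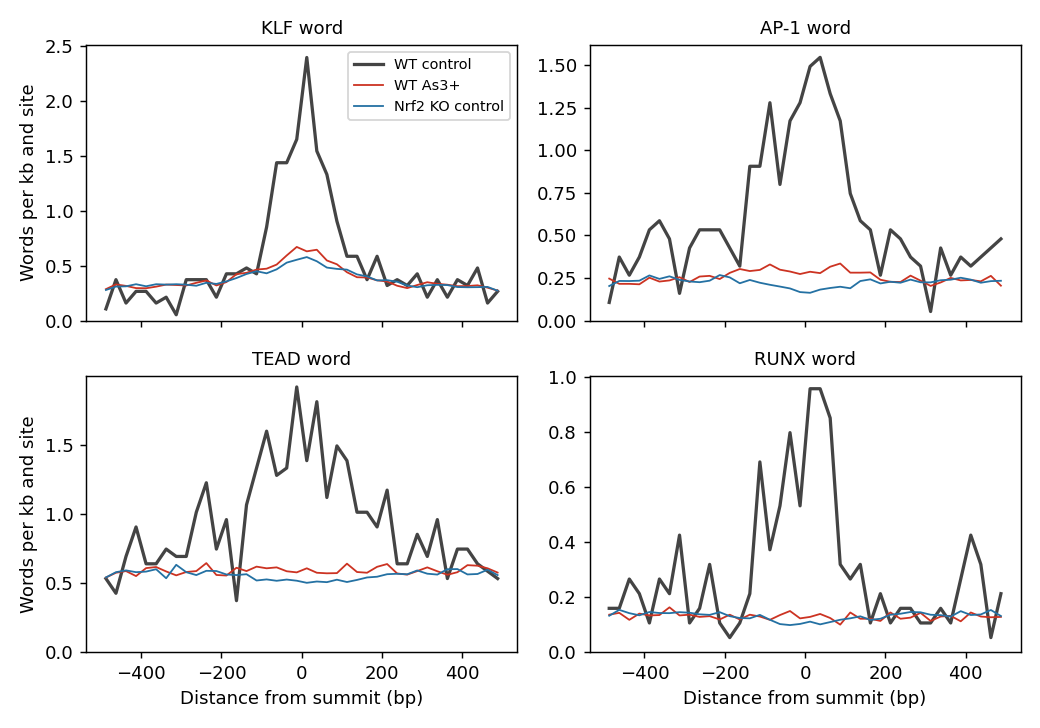
Words per kb and site (vertical axes) in bins of 25 bp by distance from the summit (horizontal axes, bp) for the KLF, AP-1, TEAD and RUNX words, in WT control, WT As3+ and Nrf2 KO control lists. WT control sites show a central rise for all of the words, from 0.246 KLF words per kb beyond 300 bp to 1.74 within 50 bp.

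The words were spread over different sites. None of the 4 words was at 298 sites (39.7%), 1 of them at 290, 2 at 131, 3 at 32 and all 4 at 0 sites, which allows a share of up to 0.490%. An AP-1 word was present at 26.6% (20.6 to 33.3%) of sites with a KLF word and 20.3% (17.0 to 23.9%) of sites without, and a TEAD word at 24.1% and 25.5%. Sites with a KLF word were somewhat stronger, with a median −log10 p of 11.1 against 10.1, and those with a RUNX word had 12.4 against 10.2.

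Word content went along with recurrence in different ways. A WT As3+ peak was present at 92.0% (87.3 to 95.3%) of sites with a KLF word and 83.3% (80.0 to 86.3%) of sites without. Among distal sites alone these were 91.0% (85.4 to 95.0%) and 80.3% (76.0 to 84.1%). For Nrf2 KO control the shares were 49.2% and 53.3%, with overlapping intervals. RUNX words went the other way. They were present at 7.40% (5.01 to 10.5%) of sites with a Nrf2 KO control peak and 18.4% (14.5 to 22.8%) of sites without, and among distal sites at 11.2% (7.48 to 15.8%) and 19.4% (15.1 to 24.3%). Distal sites with such a peak had a median GC content of 63%, those without 49.5%, and the part of GC content in this difference was not tested.

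With the gene body and 2 kb on either side, the sites fell in 710 genes, of which 456 were protein-coding and 221 lncRNA genes. The 456 are 2.28% of the 19970 annotated protein-coding genes, the level against which the lists below are read. Longer genes have more room for a site, and gene length was not adjusted for. The gene lists were chosen with earlier results of these data known, so a share above 2.28% is a description and not evidence of an excess. Of the protein-coding genes, 42 held 2 or more sites and 7 held 3 or more. These were PLEC with 5, MYCN, IQCJ-SCHIP1 and ITPK1 with 4, and EGFR, ANXA2 and SMAD6 with 3. PLEC encodes plectin, which ties intermediate filaments to junctions and actin. All 5 of its sites recurred in both long lists. By contrast 3 of the 4 sites in IQCJ-SCHIP1, a readthrough locus on chromosome 3, recurred in no other list.

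Of 12 gene lists, the one for actin and focal adhesion genes had the most members with a site, 9 of 34 or 26.5%. TAGLN2 (transgelin 2, an actin-binding protein) had a site 900 bp from its start with 38, 57 and 33 fragments in WT control, WT As3+ and Nrf2 KO control cells, and ranks of 63, 22 and 28. It was among the first 100 peaks of all 3 lists and had no Nrf2 KO As3+ peak. MYL12A (myosin regulatory light chain) had a site 174 bp from its start in all lists, with 38, 31, 16 and 35 fragments. FLNA (filamin A) had 2 sites inside 1 wide peak of 1666 bp in WT As3+ cells, and BCAR1 (the adaptor p130Cas) had 1 site with 32, 56 and 24 fragments. Among the others were ANXA2 and ACTB. By comparison 33 of the 34 genes had a WT As3+ peak and all 34 a Nrf2 KO control peak. The share of all protein-coding genes with a peak of those lists in the gene or within 2 kb was not counted. These counts therefore cannot be told from the level of all genes.

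Receptor and matrix genes had single leading sites. EGFR, the receptor for EGF, had 1 site 726 bp from its start with 22, 41, 41 and 25 fragments in the 4 lists. Its ranks there were 159, 39, 7 and 12, and its width went from 455 bp in WT control to 2338, 2197 and 738 bp. Its 2 intronic sites, over 50 kb from a gene start, recurred in WT As3+ only or in no list. It was the only one of 12 ERBB receptor and ligand genes with a site. LAMA5 (laminin alpha 5) had the nineteenth site of the list, with 51, 87 and 25 fragments and ranks of 19, 7 and 69. With ITGA3 (integrin alpha 3) it made 2 of 29 matrix and integrin genes. AXL, a receptor tyrosine kinase, was the only one of 28 YAP and TEAD factors and targets, and its stronger site had 32, 66 and 20 fragments with ranks of 131, 12 and 509.

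The lists of transcription factor genes are short and had at most 2 members each with a site, and no difference between them was tested. None of the 26 KLF and SP family genes had a site, although 23 had a WT As3+ and 25 a Nrf2 KO control peak. The share of all protein-coding genes with a peak of those 2 lists was not counted on this measure. With 2.28% of all protein-coding genes holding a site, a count of 0 in so short a list is near that level. AP-1 genes had 2 of 16 (12.5%), JDP2 and FOSL2, the latter 120 bp from its start with 19, 17 and 20 fragments. In the MYC and MAX network it was 2 of 12 (16.7%), MYCN and MYC. The MYC site, 1006 bp from the nearest gene start (CASC11), had 19, 13 and 23 fragments and ranked 556, 7109 and 96. MYC was also the only one of 9 pluripotency genes. The strongest MYCN site, 12 bp from the start of MYCNOS, lay with 2 others inside 1 peak of 3075 bp in WT As3+ cells, and of 3095 bp in Nrf2 KO control cells, where that peak ranked 2. In Nrf2 KO As3+ cells the same 3 sites kept separate peaks, of ranks 1, 4 and 19.

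Nrf2 target genes had 2 of 25, TXN and ABCC1. The TXN site, 308 bp from the start of the thioredoxin gene, held a KLF word and had 19, 19 and 15 fragments. The ABCC1 site, in an intron of this drug efflux transporter gene, had 29, 15 and 13. TGF-beta and SMAD genes had 3 of 23, namely TGFB1, SMAD6 and TGFBR3, of which the TGFBR3 site recurred in no list. KRT7 was the only one of 24 keratin and junction genes, and VIM the only one of 11 genes of mesenchymal transition. The VIM site, 319 bp from the start of the vimentin gene, had 29, 47 and 19 fragments. Over all lists, 24 of 246 distinct genes, or 9.76%, had a WT control site, and the choice of lists with earlier results known limits this share too.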

How the data were processed

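ChIP DNA was sequenced as 75-nt reads, which the authors aligned to GRCh38/hg38 with BWA. The submitters' processing notes name bcl2fastq 2.17. The program used for peak calling, its settings and its version are not given in the sources used here. The authors deposited 1 KLF4 peak list per library, with a fold ratio over local background, −log10 p, −log10 q, a summit and a score, which was 10 times −log10 q, rounded down. The histone mark and input libraries were not used here.

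The sites and all lists were chosen with earlier results of these data known. Fragments (n) and background (λ) were solved from fold = (n + 1)/(λ + 1) and a Poisson upper tail. The largest misfit in −log10 p was 0.000405. Overlap meant 1 bp. Gene starts are the 5′ ends of GENCODE 44 genes, a promoter site lies within 2 kb of one, and introns follow the canonical transcript. Genome windows were taken every 10000 bp. GC weighting used bands of 5 percentage points. Words were those spelled out in the text, both strands, and overlapping matches were counted. The 14 words included wider KLF (CCNCNCCC, 63.4% of sites against 37.0% in GC-weighted windows), GC box (CCCCGCCCC, 4.26% against 2.76%), CG run (CGCGCG, 3.73% against 3.34%), CTCF core (AGNNGGCGC, 5.06% against 3.44%), CRE (TGACGTCA, 0.266% against 0.175%) and CEBP (TTGCNCAA, 2.80% against 1.58%). The wider KLF word includes the KLF word and the GC box.

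The sites named are the 10 strongest, the 3 strongest of each presence pattern, the 5 with most KLF words, the 5 highest and 5 lowest in the WT As3+ ranking, and up to 4 genes per gene list. PLEC, IQCJ-SCHIP1, ITPK1, ANXA2 and ACTB, and the comparisons with the first 751 peaks and by GC band of genome windows, were chosen after values were seen. Python 3.11.15, numpy 2.4.6, scipy 1.17.1, pandas 2.3.3 and matplotlib 3.10.9 were used. The fragment, overlap, gene-start distance and KLF word steps were tested on simulated data. GC weighting, gene placement and clusters were not. Alternatives covered the overlap rule, thresholds, list size, TSS and gene definitions and word windows.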

Additional observations from a re-analysis of the deposited data

Results flagged for a closer look

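The WT control KLF4 list also held 9 intervals on sequences outside chromosomes 1 to 22 and X. They were left out of every count above. The other lists held 90 such intervals in WT As3+, 247 in Nrf2 KO control and 10 in Nrf2 KO As3+ cells, and the input library was not used here.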

How the results depend on the processing

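Of 47 alternative values for 9 results, 22 stayed within the main interval (counts of genes within 1.5 times) and 25 did not. The cause was not tested except where the alternative itself sets it. Presence in WT As3+ (85.6%) became 42.6% with a reciprocal overlap of 50%, 63.1% with summits within 100 bp, 91.5% for sites with −log10 q of at least 5, 73.8% with that limit on the other list and 36.1% with the other list limited to 751 peaks. Nrf2 KO control (52.2%) became 21.7%, 29.4%, 38.2% and 12% under the first pair and the last pair of these. Nrf2 KO As3+ (7.59%) became 11.3% for the stronger sites and 5.33% with the limit on its list, which is already shorter than 751. The share near a TSS (27.3%) became 22.4% at 1 kb, 40.1% at 5 kb, 17.7% for protein-coding genes only and 37.7% for the start of any transcript. KLF words (26.5%) became 16.1% in 100 bp, 31.7% in whole intervals and 31.2% for stronger sites. AP-1 words (22.0%) became 12% in 100 bp and 26.6% in whole intervals, TEAD words (25.2%) 13.3%, 31.6% and 28.9% for stronger sites, and RUNX words (12.6%) 7.32% in 100 bp and 15.2% for stronger sites. The number of protein-coding genes, 456, was 653 by nearest TSS and 583 with 10 kb. The alternatives without sites of high background and with any transcript start were chosen after seeing the data. No paired analysis was possible because each condition has 1 library and no result comes from a test.

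Each list ends at its own threshold and list sizes run from 130 to 76521 peaks, so a site absent from a list was not detected above that threshold. The study has 1 KLF4 input library, labelled BEAS-2B without a treatment, and whether all 4 lists were called against it is not stated. Condition, depth and library cannot be told apart.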
